A study of Mus musculus with 12 samples.

Results

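H4K12ac, the acetylation of lysine 12 on histone H4, was examined at 43 genes of cell division out of 55413 annotated mouse genes. The genes were taken by name and comprise the E2F transcription factors, the RB family of pocket proteins, cyclins and their kinases, the inhibitors of these kinases, CDC25 phosphatases with *Wee1*, mitotic kinases and checkpoint genes, and markers of proliferation. For each gene the H4K12ac peaks within 2 kb of the transcription start site (TSS) and those in the gene body were collected by genotype. The tissue was the whole hippocampus of mice, from which neuronal nuclei had been sorted before chromatin immunoprecipitation. 5 *Tip60* cKO mice were homozygous for floxed *Tip60* and carried the CaMKCreERT2 driver. The 5 control mice carried the same floxed gene without the driver, and mice of both genotypes had received tamoxifen, with tissue taken at day 10 after the last injection. The labels give male C57BL/6J mice with an age of 3 months, whereas the methods of the study name C57BL/6N and either sex. Because CaMKCreERT2 acts in excitatory forebrain neurons after their last division, inhibitory neurons among the sorted nuclei still had *Tip60*. In such a sample a smaller share of acetylated nuclei and less acetylation per nucleus cannot be told apart.

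E2F factors bind the promoters of genes needed for DNA synthesis and mitosis. The pocket proteins RB1, RBL1 and RBL2 hold them in check until cyclin D and cyclin E with their kinases phosphorylate the pocket proteins, and the INK4 and Cip/Kip proteins inhibit these kinases. Neurons leave the cell cycle when they are born, and TIP60, a histone acetyltransferase that acetylates H4, is known as a coactivator of E2F1. The question of the comparison was how H4K12ac at these genes differed between the sorted neuronal nuclei of *Tip60* cKO and control mice.

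The deposited peaks were ranked by fold enrichment, which is the height of overlapping fragments at the peak summit (pileup) over the local background of the input, with 1 added to both. For the TSS rank score, the strongest peak in the 4 kb TSS window of a gene was ranked, in percent, among the windows of all annotated genes. It is 0 without a peak, and the lowest score of a window with a peak was 65.2 to 72 in the 10 libraries, as most windows had none. A score of 0 means that no region passed the threshold of the authors at that depth, and weaker acetylation may have been missed. Genotypes were compared with limma over the 21671 genes with a peak in at least 2 lists, and p-values were adjusted over all of them. Each library stands for 1 mouse, and the p-values measure the spread between these mice.

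The libraries held 22864189 to 37923809 tags and 64245 to 136409 peaks, with the shortest list in *Tip60* cKO mouse 5. By the names of the lists, mice 1 to 3 of each genotype were sequenced in lane 7 and mice 4 and 5 in lane 8, and differences within lanes are given for some genes. Input was pooled, and 1 input library of each genotype served as background for the 5 libraries of that genotype. In *Tip60* cKO libraries 52.2 to 58.2% of peaks lay on the lowest background level of the library, compared to 27.8 to 35.2% in control libraries. Differences in input and in genotype therefore cannot be told apart in fold enrichment, and pileups are given below for several genes whose backgrounds differ. Each library had a TSS peak at 8 of 10 neuron markers, though not always the same 8, and *Gad1* was the marker without a peak in any list. None of the 5 microglia markers had a TSS peak in any list, at most 1 of 5 endothelial markers had one in a library, and 1 to 3 of 5 astrocyte and 1 to 2 of 5 oligodendrocyte markers did. Of 6 neural progenitor markers 1 to 4 had a peak in *Tip60* cKO and 2 to 3 in control libraries.

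H4K12ac peaks were found at the TSS of many but not all of these cell cycle genes. 18 of 43 genes (41.9%) had a TSS peak in all 10 lists, similar to 44.0% of protein-coding genes, and 13 genes (30.2%) had none in any list, compared to 34.7% of protein-coding genes. The remaining genes had a peak in 1 list (*E2f2* and *Bub1b*) or in 5 to 9 lists. On average 24.4 ± 2.3 genes had a TSS peak in *Tip60* cKO libraries and 26.4 ± 1.14 in control libraries (SD, n = 5), with ranges of 22 to 28 and 25 to 28 that overlapped. The median control score of the 18 genes with a peak in every list was 84.3, and that of protein-coding genes with a peak in every list was 88.2. No peak at any annotated TSS or in the body was listed for *E2f8*, *Ccnb1*, *Ccnb2*, *Cdk6*, *Cdkn2a*, *Cdkn2b*, *Bub1*, *Aurkb*, *Cdc25c* and *Mki67*, which include the B-type cyclins of mitosis and the common marker of dividing cells Ki67.

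**Figure D1:**
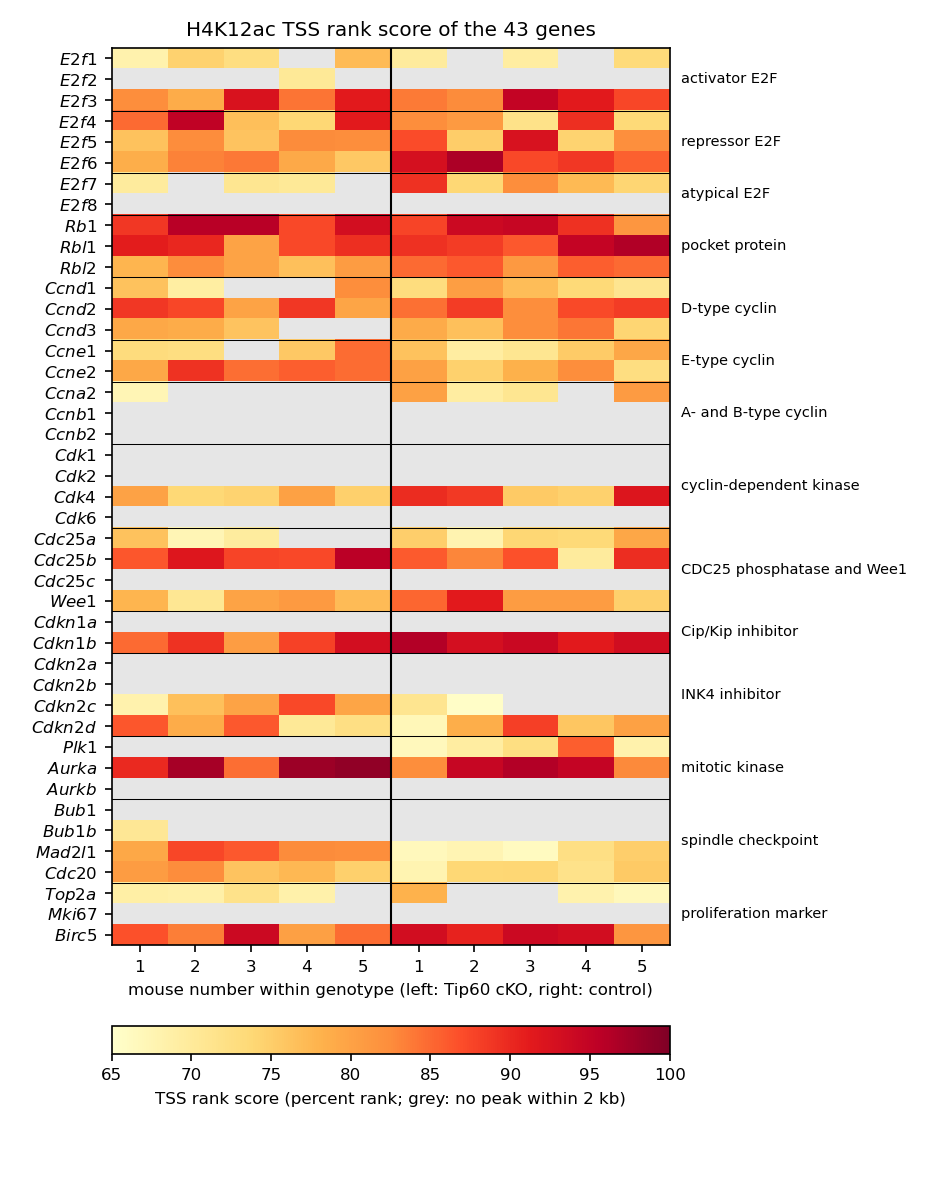
H4K12ac TSS rank score (percent rank by fold enrichment, colour scale from 65 to 100) of the 43 genes, in rows by role, in 5 *Tip60* cKO and 5 control mice. Grey cells had no peak within 2 kb. Pocket proteins and repressor E2Fs are coloured in all 10 mice, whereas *Plk1* is coloured in the 5 control mice and grey in the 5 *Tip60* cKO mice.

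The peaks flanked the TSS. The share of the 43 genes with a peak over a given position was highest at -300 bp from the TSS in control mice (33 ± 3.45%) and 350 bp downstream in *Tip60* cKO mice (28.4 ± 8.76%, SD, n = 5). In protein-coding genes the maximum lay 200 bp downstream of the TSS in both genotypes, at 44.5 ± 1.79% in control and 39.5 ± 4.89% in *Tip60* cKO. Over the 4 kb window the 43 genes were covered by peaks to 10.9 to 14.6% in control mice and to 6.74 to 14.4% in *Tip60* cKO mice, and these ranges overlapped. Of the 18 genes with a peak in all lists, the median summit of the strongest peak lay upstream of the TSS in 9 and downstream in 9.

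**Figure D2:**
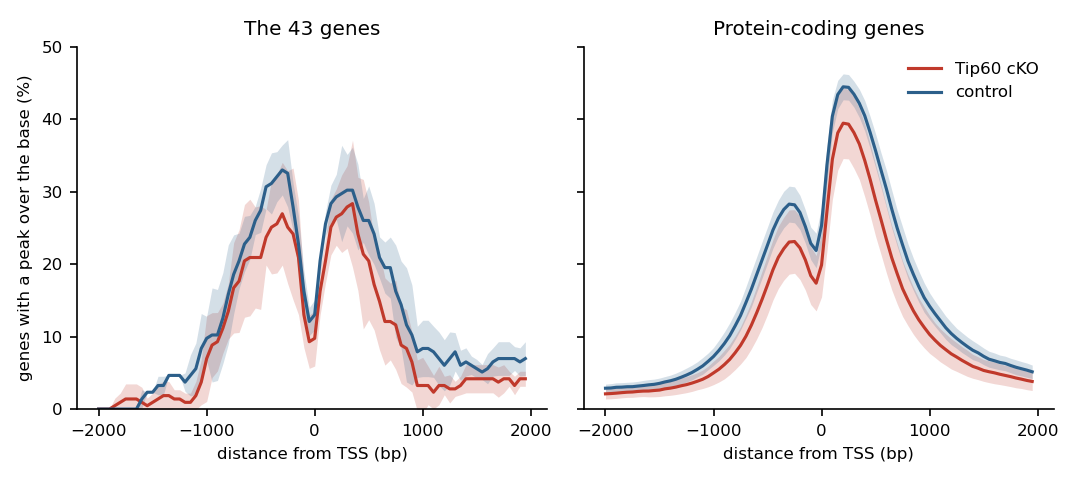
Share of genes (percent) with an H4K12ac peak over positions from 2000 bp upstream to 2000 bp downstream of the TSS, as the mean (line) and SD (band) of 5 mice per genotype. The left panel shows the 43 genes, with the highest share at -300 bp in control (33%) and at 350 bp in *Tip60* cKO (28.4%). The right panel shows protein-coding genes, with a higher downstream peak of 44.5% in control and 39.5% in *Tip60* cKO.

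Promoter sequences of the table used here (RefSeq, GRCm38.p6, 250 bases before to 50 after each start) were matched by symbol to 33 of the 43 genes. The E2F motif (TTTCGCGC or TTTGGCGC, either strand) occurred in 4 of these genes, *Cdc25a*, *Cdk1*, *E2f2* and *Rbl1*, and in 0.814% of all 32817 promoters of the same length. The cell cycle homology region CHR (TTTGAA, either strand), which is bound by MuvB complexes in mitotic genes, occurred in 13 genes and in 17.9% of all promoters. The CCAAT box (either strand) occurred in 22 genes and in 37.4% of all promoters. Counted by promoter, as for the genome, E2F, CHR and CCAAT occurred in 4, 13 and 23 of the 39 promoters of the 33 genes. The E2F and CHR motifs share their first letters TTT, and no motif contains another. A match is a description of the sequence. Shown are the 250 upstream bases of 6 genes with motif matches in capitals. 4 are the genes with an upstream E2F or CHR match that had a peak in every list or an unadjusted p below 0.05 at the TSS, and the other two have the smallest p-values among genes without such a match. These are the CHR of *Rbl2* (chr8:91069807-91070056, plus strand, motif on the reverse strand) and of *Cdc20* (chr4:118437344-118437593, minus strand, with CCAAT boxes on either side), the E2F site of *Rbl1* (chr2:157204535-157204784, minus strand), the CHR of *E2f3* (chr13:29986064-29986313, minus strand, with CCAAT boxes), and the promoters of *Plk1* (chr7:122159185-122159434, plus strand, 1 CCAAT box) and *Mad2l1* (chr6:66534971-66535220, plus strand, no match).
Rbl2: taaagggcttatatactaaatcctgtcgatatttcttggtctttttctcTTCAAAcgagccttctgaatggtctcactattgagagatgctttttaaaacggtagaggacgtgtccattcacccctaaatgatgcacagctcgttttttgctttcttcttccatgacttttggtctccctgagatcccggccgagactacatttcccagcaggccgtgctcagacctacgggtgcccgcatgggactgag
Cdc20: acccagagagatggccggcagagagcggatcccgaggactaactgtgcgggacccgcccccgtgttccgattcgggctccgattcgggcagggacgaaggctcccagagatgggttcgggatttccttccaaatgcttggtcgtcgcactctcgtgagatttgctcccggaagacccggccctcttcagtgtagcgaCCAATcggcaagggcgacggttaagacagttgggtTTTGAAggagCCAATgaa
Rbl1: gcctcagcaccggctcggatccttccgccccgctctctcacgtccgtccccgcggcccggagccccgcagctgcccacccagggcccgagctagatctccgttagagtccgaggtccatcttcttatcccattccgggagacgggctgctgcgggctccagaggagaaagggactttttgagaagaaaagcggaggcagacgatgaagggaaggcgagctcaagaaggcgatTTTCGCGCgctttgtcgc
E2f3: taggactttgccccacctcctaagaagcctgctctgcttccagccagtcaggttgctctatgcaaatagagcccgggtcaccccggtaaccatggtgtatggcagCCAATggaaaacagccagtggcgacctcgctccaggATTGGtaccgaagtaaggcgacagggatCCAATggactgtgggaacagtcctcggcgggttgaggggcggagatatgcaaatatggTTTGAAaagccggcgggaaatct
Plk1: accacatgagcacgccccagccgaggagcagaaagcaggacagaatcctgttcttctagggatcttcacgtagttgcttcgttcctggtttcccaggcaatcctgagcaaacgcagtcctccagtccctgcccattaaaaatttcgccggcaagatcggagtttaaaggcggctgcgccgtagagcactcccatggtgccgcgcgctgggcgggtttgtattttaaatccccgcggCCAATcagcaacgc
Mad2l1: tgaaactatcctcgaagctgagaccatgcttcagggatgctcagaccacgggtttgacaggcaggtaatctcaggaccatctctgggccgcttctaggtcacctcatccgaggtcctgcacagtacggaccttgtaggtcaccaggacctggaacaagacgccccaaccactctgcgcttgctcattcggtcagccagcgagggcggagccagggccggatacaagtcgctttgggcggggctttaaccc
The CHR match of *Plk1* began 30 bases after the start and is outside the bases shown. The strongest H4K12ac peaks of *E2f3* (chr13:29983424-29985605) lay downstream of the bases shown, and those of the other 5 genes spanned regions, given below with each gene, that overlap them.

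*Plk1*, with a TSS peak in all 5 control lists and in no *Tip60* cKO list, was the cell cycle gene with an adjusted p below 0.05 at the TSS. It entered the test through the control lists alone, so the call restates that its peak was listed in control mice and not in *Tip60* cKO mice. Over all 21671 genes, 34 were lower (0.157%) and 17 higher (0.0784%) in *Tip60* cKO at an adjusted p below 0.05, and 28 of the 43 cell cycle genes were tested, of which 1 was lower and 0 higher. At an unadjusted p below 0.05, 6 cell cycle genes were lower and 4 higher in *Tip60* cKO (21.4% and 14.3% of 28), whereas 6.68% and 5.1% of all genes were. This split depended on the scaling. Ranked by pileup, 3 were lower and 4 higher, against 5.27% and 3.44% of all genes, and with log2 fold enrichment 8 were lower and 1 higher, against 18% and 1.63%. 3 cell cycle genes did not overlap between genotypes and were lower (*E2f6*, *E2f7* and *Plk1*), and 1 was higher (*Mad2l1*), against 1.62% and 1.93% of all genes. An exact two-sided permutation test over mice gave the same counts of 6 lower and 4 higher genes at an unadjusted p below 0.05, against 6.7% and 5.78% of all genes. The median difference in score, *Tip60* cKO minus control, was -2.87 points for the 28 genes and -0.69 points for all genes tested, and 17 of 28 genes (60.7%) had the lower mean in *Tip60* cKO, compared to 55.6% of all genes.

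**Figure D3:**
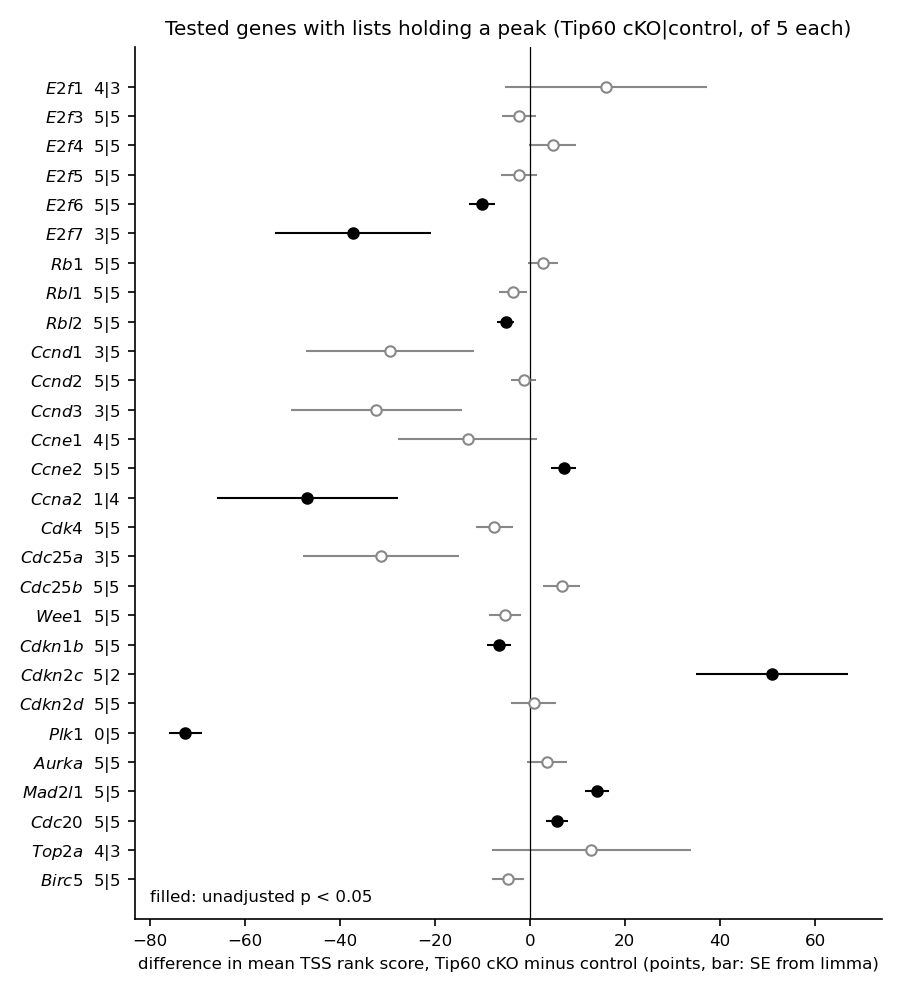
Difference in mean TSS rank score between *Tip60* cKO and control (points) for the 28 tested genes, with the SE from limma as bars. The numbers beside each name are the lists with a peak in *Tip60* cKO and control, and filled points had an unadjusted p below 0.05. *Plk1* lies farthest to the left at -72.4 and *Cdkn2c* farthest to the right at 51.0.

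Among the activator E2Fs, *E2f1*, the factor that TIP60 is known to assist, had a TSS peak in 4 *Tip60* cKO and 3 control lists. Its scores were 68.1, 74.5, 72.6, 0 and 77.1 in *Tip60* cKO mice 1 to 5 and 69.7, 0, 69.3, 0 and 73.3 in control mice 1 to 5. Mice with and without a peak were present in both genotypes, and the difference of 16.0 ± 21.3 points (SE) did not pass the test (adjusted p = 0.802). With the same number of peaks taken from each library it was 30.2 points (adjusted p = 0.596). With log2 fold enrichment in place of ranks the direction at *E2f1* turned (-0.0156, adjusted p = 0.862). The strongest *E2f1* peaks lay within chr2:154568731-154570308 (mm10), with pileups of 14 to 25 in the control mice with a peak and 12 to 16 in *Tip60* cKO. Their background was 1.0 times the lowest level of the library in *Tip60* cKO and 1.0 to 1.82 times in control. Fold enrichment was 3.56 ± 0.356 in *Tip60* cKO and 3.54 ± 0.285 in control (SD, lists with a peak). The genes with the most similar TSS scores over the 10 libraries were *Cdc25b* (Pearson r = 0.67), *E2f5* (0.44) and *Cdkn2d* (0.31), where the libraries also share depth and genotype. As *E2f1* scored either 0 or at least 68.1, r depends largely on which libraries listed its peak. The window of *Cdc25b* also holds the start of *Spef1*, 333 bp away. *E2f3* had a peak in every list, with scores of 85.8 ± 5.90 in *Tip60* cKO and 88.0 ± 5.17 in control (adjusted p = 0.807). *E2f2* had a TSS peak in *Tip60* cKO mouse 4 alone and was not tested at this TSS.

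The repressor E2Fs *E2f4*, *E2f5* and *E2f6* carried a peak in all 10 lists. *E2f6*, which represses with Polycomb proteins, had scores of 78.7, 83.3, 83.9, 79.1 and 75.6 in *Tip60* cKO mice and 92.8, 96.8, 87.3, 88.7 and 85.5 in control mice. All *Tip60* cKO mice were below all control mice, by 10.1 ± 2.73 points on average (SE, unadjusted p = 0.00478, adjusted p = 0.170), and the difference was -10.3 among mice of lane 7 and -9.77 among mice of lane 8. Fold enrichment at the *E2f6* peaks (chr12:16810443-16811684) was 4.44 ± 0.508 in *Tip60* cKO and 6.82 ± 1.15 in control. The background under these peaks was 1.35 ± 0.217 times the lowest level of the library in *Tip60* cKO and 1.0 ± 0.00923 times in control, and pileups of 16 to 29 and 23 to 41 overlapped. Ranked by pileup, the difference at *E2f6* was -1.02 points (adjusted p = 0.966, range over all alternatives 0.0642 to 0.966). *E2f4* scored 84.4 ± 9.14 in *Tip60* cKO and 79.6 ± 7.10 in control, and *E2f5* 79.9 ± 3.4 and 82.2 ± 7.75, with adjusted p-values of 0.727 and 0.810.

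Of the atypical E2Fs, which repress without a dimerisation partner, *E2f7* had a TSS peak in 3 *Tip60* cKO and all 5 control lists and *E2f8* in none. *E2f7* scores were 69.7, 0, 71.0, 70.3 and 0 in *Tip60* cKO and 89.3, 73.8, 82.3, 77.2 and 74.0 in control mice. The highest *Tip60* cKO mouse was below the lowest control mouse, and the difference of -37.2 ± 16.4 points had an unadjusted p of 0.0490 and an adjusted p of 0.421 (range over all alternatives 0.106 to 1). With equal peak numbers the difference at *E2f7* was -65.2 points (adjusted p = 0.106), and with all transcripts it was -22.2 points and the genotypes overlapped through *Tip60* cKO mouse 2 (adjusted p = 0.528). The peaks (chr10:110744840-110745316) had summits at -475 to -277 bp from the TSS, and their backgrounds were at 1.0 times the lowest level in every list with a peak.

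The pocket protein genes *Rb1*, *Rbl1* and *Rbl2* had TSS peaks in all 10 mice, and *Rb1* and *Rbl1* were among the highest scores of the 43 genes. *Rb1* scored 92.2 ± 3.98 in *Tip60* cKO and 89.4 ± 5.37 in control, and *Rbl1* 87.5 ± 4.49 and 91.0 ± 4.39 (adjusted p = 0.742 and 0.648). *Rbl2*, which encodes p130, the pocket protein of resting cells, had scores of 77.8, 82.5, 79.9, 76.5 and 80.6 in *Tip60* cKO and 84.9, 86.2, 81.1, 85.7 and 84.9 in control mice. The genotypes overlapped through *Tip60* cKO mouse 2 and control mouse 3, and the difference was -5.09 ± 1.85 points (unadjusted p = 0.0219, adjusted p = 0.347). Fold enrichment at *Rbl2* (chr8:91068997-91070634) was 4.35 ± 0.173 in *Tip60* cKO and 5.60 ± 0.248 in control, while the backgrounds were 1.03 ± 0.0473 and 1.0 times the lowest level. With log2 fold enrichment, centred on the library median, in place of ranks, *Rbl2* was lower by 0.39 with an adjusted p of 0.0285 (range over all alternatives 0.0285 to 0.757). On this scale the whole genome leaned lower in *Tip60* cKO. At an unadjusted limma p below 0.05, 18% of all genes were lower and 1.63% higher. Ranked by pileup, the difference at *Rbl2* was -2.48 points (unadjusted p = 0.164, adjusted p = 0.688), with pileups of 18.4 ± 2.51 in *Tip60* cKO and 24.8 ± 3.11 in control.

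Among the D-type cyclins, which start the cycle upon growth signals, *Ccnd2* had a TSS peak in all lists and *Ccnd1* and *Ccnd3* in 3 *Tip60* cKO and 5 control lists each. *Ccnd2* scored 84.9 ± 4.74 and 86.1 ± 2.63 in *Tip60* cKO and control (adjusted p = 0.857). *Ccnd1* had no peak in *Tip60* cKO mice 3 and 4 and *Ccnd3* none in mice 4 and 5, and the mean differences of -29.4 ± 17.6 and -32.3 ± 18 points did not pass the test (adjusted p = 0.524 and 0.503). With the windows of all transcripts the difference at *Ccnd3* turned to 1.77 points (adjusted p = 0.806). The E-type cyclins drive entry into DNA synthesis. *Ccne2* scored 79.3, 89.1, 84.6, 85.7 and 84.7 in *Tip60* cKO and 80.1, 74.6, 78.3, 82.3 and 72.6 in control mice. Its genotypes overlapped through *Tip60* cKO mouse 1, and the difference of 7.14 ± 2.58 points had an unadjusted p of 0.0216 and an adjusted p of 0.347. The *Ccne2* peaks (chr4:11190157-11191682) had pileups of 21 ± 3.54 and 20 ± 1.58. *Ccne1* lacked a peak in *Tip60* cKO mouse 3 and scored 61.2 ± 34.5 and 74.3 ± 4.12 (adjusted p = 0.747). With the same number of peaks taken from each library its difference turned from -13.1 to 0.75 points (unadjusted p = 0.971).

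*Ccna2*, the cyclin of DNA synthesis and early mitosis, had a TSS peak in 1 *Tip60* cKO and 4 control lists. Its scores were 67.3 in *Tip60* cKO mouse 1 and 0 in the other 4, and 80.1, 69.3, 70.9, 0 and 80.8 in control mice. The genotypes overlapped through control mouse 4, and the difference of -46.8 ± 19.0 points did not pass the test (unadjusted p = 0.0360, adjusted p = 0.379). The peaks (chr3:36572196-36572623) had their summits at -435 to -160 bp from the TSS, with a background of 1.33 times the lowest level in *Tip60* cKO mouse 1 (pileup 17) and 1.0 times in control mice (pileups of 15 to 24). *Ccnb1* and *Ccnb2* had no peak in any list.

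Of the cyclin-dependent kinases, *Cdk4*, the partner of cyclin D, had a TSS peak in all lists, whereas *Cdk1*, *Cdk2* and *Cdk6* had none. *Cdk4* scored 76.6 ± 3.21 in *Tip60* cKO and 84.0 ± 8.33 in control (adjusted p = 0.503). The CDC25 phosphatases remove the inhibitory phosphate that the WEE1 kinase places on these kinases. *Cdc25b* scored 89.7 ± 3.99 and 83.0 ± 7.76 and *Wee1* 77.3 ± 3.99 and 82.5 ± 6.14, each with a peak in all lists (adjusted p = 0.503 and 0.559). The background at *Wee1* was 1.0 times the lowest level in *Tip60* cKO and 1.22 times in control, with pileups of 17 ± 3.74 and 27.8 ± 6.69. Ranked by pileup, the difference at *Wee1* was -8.99 points instead of -5.24 (unadjusted p = 0.0166, adjusted p = 0.502). *Cdc25a* had a peak in 3 *Tip60* cKO and 5 control lists (42.6 ± 39.1 and 73.9 ± 4.14, adjusted p = 0.503), and *Cdc25c* in none.

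*Cdkn1b*, which encodes the kinase inhibitor p27 of resting cells, had the highest control score of the 43 genes. It scored 84.9, 89.1, 80.5, 87.9 and 93.1 in *Tip60* cKO and 96.2, 92.9, 94.1, 91.4 and 93.4 in control mice. *Tip60* cKO mouse 5 lay within the control range and the other 4 below it, and the difference was -6.50 ± 2.48 points (unadjusted p = 0.0273, adjusted p = 0.347). It was -9.58 points at *Cdkn1b* among mice of lane 7 and -1.88 among mice of lane 8, and -4.05 ranked by pileup (unadjusted p = 0.0805, adjusted p = 0.614). Fold enrichment at the *Cdkn1b* peaks (chr6:134919527-134921000) was 5.39 ± 0.570 in *Tip60* cKO and 7.49 ± 0.723 in control, and pileups were 24.0 ± 2.92 and 34 ± 5.39. On the log2 scale of fold enrichment, where the whole genome leaned lower as given for *Rbl2*, *Cdkn1b* was lower by 0.51 (adjusted p = 0.0320, range over all alternatives 0.0320 to 0.896). *Cdkn1a*, which encodes p21, had no peak within 2 kb of its TSS in any list, but had peaks in its body in all lists.

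The INK4 inhibitors block CDK4 and CDK6. *Cdkn2c*, which encodes p18, had a TSS peak in all 5 *Tip60* cKO and 2 control lists. Its scores were 68.1, 76.6, 79.9, 87.3 and 79.6 in *Tip60* cKO and 71.0, 65.5, 0, 0 and 0 in control mice, so that 3 control mice had no peak and control mouse 1 lay within the *Tip60* cKO range. The difference of 51.0 ± 16.0 points had an unadjusted p of 0.0108 and an adjusted p of 0.271, and was 29.3 points among mice of lane 7 and 83.4 points among mice of lane 8, where neither control mouse had a peak. The adjusted p over all alternatives ranged from 0.00585 to 0.720, with the lowest in lane 8 alone, where 930 genes of the genome passed with 2 mice per genotype. The *Cdkn2c* peaks (chr4:109665842-109667208) had pileups of 13 to 24 in *Tip60* cKO and of 21 and 11 in control mice 1 and 2, and the background was 1.42 times the lowest level in control mouse 1 and 1.0 times in the others with a peak. *Cdkn2d*, which encodes p19, had a peak in all lists and scored 78.7 ± 7.47 and 77.9 ± 7.61 (adjusted p = 0.996). Its background was 1.0 times the lowest level in *Tip60* cKO and 1.4 times in control, and by pileup the difference at *Cdkn2d* was -5.63 points (adjusted p = 0.723). *Cdkn2a* and *Cdkn2b* had none.

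*Plk1*, a kinase that drives entry into and passage through mitosis, had a TSS peak in all 5 control lists and in no *Tip60* cKO list. Control mice scored 66.6, 69.3, 72.4, 85.7 and 68.2 and each *Tip60* cKO mouse 0. The difference was -72.4 ± 3.48 points (SE, adjusted p = 3.1e-06). As the score is 0 without a peak and steps to the lowest score of the library at the threshold, this size, its SE and its p reflect the presence of a listed peak and not an amount of acetylation. An exact two-sided permutation test over mice gave p = 0.00794, the smallest that 5 against 5 mice allow. The peaks of control mice (chr7:122158771-122159237) were weak, with pileups of 14, 15, 16, 21 and 15, fold enrichments of 2.72 to 5.62 and summits at -596 to -325 bp from the TSS. An antisense gene, *Gm15489*, starts 38 bp away in the opposite direction, and the window holds both starts. With the same number of peaks taken from each library, 2 of 5 control mice kept the *Plk1* peak and the call was lost (-31.6 points, adjusted p = 0.505). It was also lost with a mean-dependent robust prior (adjusted p = 0.0790). Under the exact test adjusted over all genes the adjusted p was 0.224. As *Plk1* already had the smallest exact p possible, no gene could pass there, and this result says nothing about the call. On the log2 scale of fold enrichment, where peaks below the library median count as 0 like absent peaks, the difference was -0.14 with an adjusted p of 0.542, and the adjusted p over all alternatives ranged from 1.2e-07 to 0.542. *Plk1* was also the cell cycle gene with a peak in at least 4 more lists of a genotype, as 0.955% of all tested genes had for control and 0.291% for *Tip60* cKO. *Aurka*, the kinase of the spindle poles, had the highest *Tip60* cKO score of the 43 genes (93.7 ± 6.17, control 90.1 ± 6.98, adjusted p = 0.755) in a window shared with *Cstf1*, which starts 146 bp away. *Aurkb* had no peak.

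Of the spindle checkpoint genes, *Mad2l1*, which encodes the checkpoint protein MAD2, and *Cdc20*, which encodes its target, had TSS peaks in all lists, *Bub1b* in *Tip60* cKO mouse 1 alone and *Bub1* in none. *Mad2l1* scored 79.3, 87.5, 86.2, 82.5 and 82.3 in *Tip60* cKO and 66.5, 67.5, 66.1, 72.3 and 75.0 in control mice. All *Tip60* cKO mice were above all control mice, by 14.1 ± 2.52 points (unadjusted p = 0.000321, adjusted p = 0.0874), with 17.6 points among mice of lane 7 and 8.75 among mice of lane 8. The fold enrichment at its peaks (chr6:66534743-66535319) was 4.90 ± 0.384 in *Tip60* cKO and 3.18 ± 0.697 in control. Pileups of 14 to 23 and 15 to 24 overlapped, while the background was 1.0 times the lowest level in every *Tip60* cKO mouse and 1.26 to 1.66 times in control mice. Ranked by pileup, the genotypes overlapped at *Mad2l1* and the difference was 9.19 points (adjusted p = 0.256, range over all alternatives 0.0198 to 0.590). With equal peak numbers 3 of 5 control mice lost the *Mad2l1* peak and the difference was 54.1 points (adjusted p = 0.285). *Cdc20* scored 80.7, 82.5, 76.1, 77.3 and 74.8 in *Tip60* cKO and 67.7, 73.8, 73.9, 71.7 and 75.5 in control mice. Its genotypes overlapped through *Tip60* cKO mouse 5 and control mouse 5, and the difference of 5.76 ± 2.26 points had an unadjusted p of 0.0310 and an adjusted p of 0.354 (7.95 points in lane 7, 2.48 in lane 8 and, with equal peak numbers and no *Cdc20* peak in control mouse 1, 19.3 points with an adjusted p of 0.596), with backgrounds of 1.0 times the lowest level in all 10 mice (peaks at chr4:118437030-118438511).

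**Figure D4:**
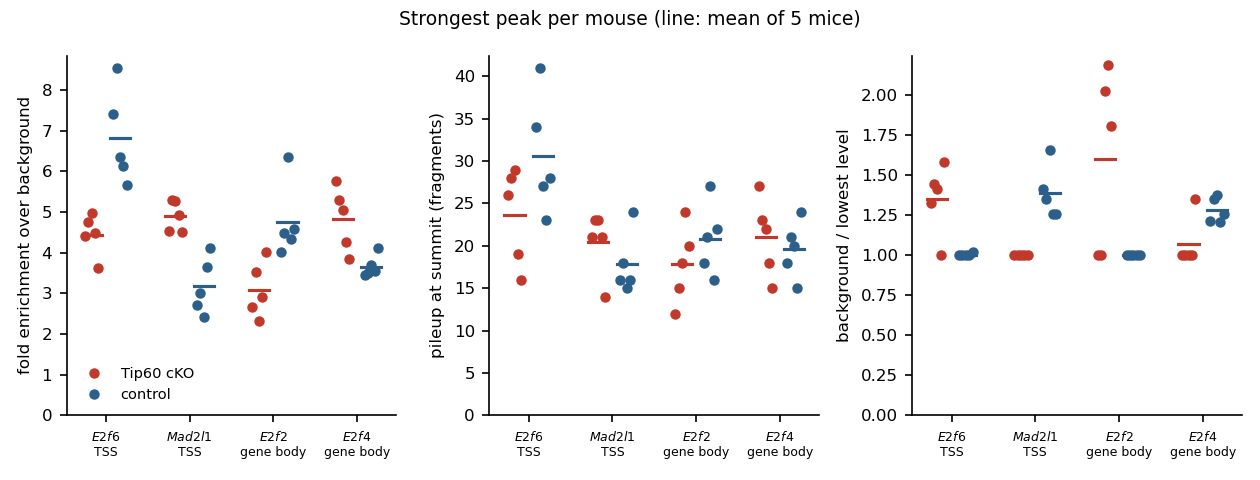
Fold enrichment, pileup (fragments) and background relative to the lowest level of the library for the strongest peak of *E2f6*, *Mad2l1*, *E2f2* and *E2f4* in 5 *Tip60* cKO and 5 control mice, with the mean as a line. At *Mad2l1* fold enrichment was 4.90 and 3.18, pileups overlapped, and the background was at its lowest level in all *Tip60* cKO mice and above it in all control mice.

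Of the genes used as markers of proliferation, *Birc5*, which encodes survivin, had a TSS peak in all lists, *Top2a* in 4 *Tip60* cKO and 3 control lists, and *Mki67* in none. *Birc5* scored 85.8 ± 5.08 and 90.4 ± 5.24 and *Top2a*, a topoisomerase of dividing cells, 55.5 ± 31.1 and 42.5 ± 39.1 in *Tip60* cKO and control (adjusted p = 0.603 and 0.809).

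In gene bodies, from 2 kb after the TSS to the gene end, no cell cycle gene passed the test. 42 of the 43 genes were longer than 4 kb, 19 of them had a body peak in at least 2 lists, 9 in all lists and 23 in none. Over all 12823 genes tested 0.164% were lower and 0.0234% higher at an adjusted p below 0.05, and 0 of 19 cell cycle genes were called by limma in either direction. At an unadjusted p below 0.05, 1 was lower and 1 higher, against 6.13% and 4.34% of all genes, and the exact permutation test also gave 1 and 1, against 5.79% and 5.2%. The number of cell cycle genes without overlap between genotypes was 0 in either direction, compared to 1.5% lower and 1.41% higher among all genes. The median difference of the 19 genes was -2.16 points, compared to -0.59 for all genes, and 13 of 19 had the lower mean in *Tip60* cKO, as did 54.2% of all genes.

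*E2f2* had body peaks in all lists (chr4:136179683-136181276), with the median summit 420 bp from another transcript start of *E2f2*. Body scores were 59.7, 71.0, 61.9, 63.8 and 78.7 in *Tip60* cKO and 77.1, 81.9, 92.6, 80.7 and 81.5 in control mice. *Tip60* cKO mouse 5 overlapped with the control mice and the other 4 were below them, and the difference was -15.7 ± 4.37 points (unadjusted p = 0.00561, adjusted p = 0.240). It was -19.7 points at *E2f2* in lane 7 and -9.81 in lane 8, and -52.8 points with equal peak numbers, where *Tip60* cKO mice 1, 3 and 4 had no body peak (adjusted p = 0.400). The background there was 1.0 times the lowest level in all control mice and 1.0, 1.0, 2.02, 2.19 and 1.81 times in *Tip60* cKO mice. Ranked by pileup the direction at *E2f2* turned, with 2.62 points and an adjusted p of 0.904 (range over all alternatives 0.0967 to 0.904). *E2f4* showed the opposite order, with 92.2, 90.6, 88.0, 80.2 and 75.3 in *Tip60* cKO and 69.1, 70.1, 70.7, 69.8 and 76.5 in control mice. Its genotypes overlapped through *Tip60* cKO mouse 5 and control mouse 5, and the difference was 14.0 ± 3.63 points (unadjusted p = 0.00372, adjusted p = 0.193), with 20.3 points among mice of lane 7 (adjusted p = 0.0235, range over all alternatives 0.0235 to 0.801) and 4.64 among mice of lane 8. These peaks (chr8:105303939-105306093) lay near the gene end, with the median summit 663 bp from the start of *Elmo3*, and the strongest peak reached past the end of *E2f4* in 3 lists. Background was 1.07 ± 0.158 times the lowest level in *Tip60* cKO and 1.28 ± 0.0776 times in control, with pileups of 15 to 27 and 15 to 24. Ranked by pileup, the *E2f4* body scores lay closer together. They were 90.3, 88.6, 85.8, 77.4 and 85.0 in *Tip60* cKO and 72.8, 77.3, 78.6, 73.4 and 80.7 in control mice.

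Several body peaks lay within 2 kb of another annotated transcript start of the same gene. For *E2f3* the median summit was 99 bp from such a start, for *Cdkn1a* 1111 bp, for *Ccnd2* 1253 bp and for *Bub1b* 1487 bp. The start of another gene was nearer at *Ccnd2* (*9330179D12Rik*, 82 bp) and at *Cdkn1a* (*AC167363.2*, 431 bp). With the windows of all transcripts of a gene counted, *Cdkn1a*, *E2f2* and *Ccnd3* had a peak in all 10 lists and *Bub1b* in 4 *Tip60* cKO and 5 control lists. The scores of *Cdkn1a* were then 73.9, 81.0, 89.2, 75.7 and 71.9 in *Tip60* cKO and 72.7, 81.7, 81.0, 80.1 and 73.3 in control mice, which overlapped (adjusted p = 0.997). *E2f2* then scored 69.3 and 77.7 on average, with overlap (-8.42 ± 3.13 points, unadjusted p = 0.0244, adjusted p = 0.338). At *Bub1b* the difference was -19.0 ± 14.3 points (adjusted p = 0.607) and at *Ccnd3* 1.77 points. Body scores of genes with a body peak in every list also overlapped at *Rb1* (84.1 ± 2.98 and 82.0 ± 5.95), *Ccnd1* (70.2 ± 4.61 and 72.3 ± 5.34), *Ccnd3* (92.9 ± 0.876 and 94.3 ± 2.85) and *Cdkn1a* (81.7 ± 8.12 and 83.0 ± 6.26). The lower mean in *Tip60* cKO at *E2f3* (87.0 ± 5.26 and 92.4 ± 4.0), *Ccnd2* (79.7 ± 6.81 and 85.3 ± 4.93) and *Bub1b* (74.1 ± 7.35 and 82.4 ± 8.65) did not pass the test (adjusted p = 0.536, 0.606 and 0.549). The strongest TSS and body peak of *E2f3* was the same peak in 8 of 10 lists, so its TSS and body scores are not separate measurements. *E2f6*, *E2f7*, *Rbl1*, *Rbl2*, *E2f1* and *Cdc25b* had body peaks in 3 to 9 lists. *Cdk1* and *Cdk2* had body peaks in 2 *Tip60* cKO lists each, *Wee1* in 2 control lists and *Cdk4* in 1 list of each genotype.

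The share of the TSS window that lay inside peaks was lower in *Tip60* cKO at most genes of the genome, cell cycle genes included. Of all 21671 genes 81.0% had the lower mean coverage in *Tip60* cKO, and so did 21 of 28 cell cycle genes (75%). The median difference was -5.10 percentage points for the 28 genes and -4.01 for all genes. At an adjusted p below 0.05, 1.53% of all genes were lower and 0.0369% higher, and 0 of 28 cell cycle genes passed the limma test. At an unadjusted p below 0.05, 7 cell cycle genes were lower and 1 higher, against 22.3% and 0.891% of all genes, and the exact permutation test gave 8 lower and 1 higher, against 18.7% and 0.752%. 3 genes were lower without overlap between genotypes (*Rbl1*, *Ccnd2* and *Plk1*) and 1 was higher (*Mad2l1*), against 5.23% and 0.157% of all genes.

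*Ccnd2* was covered to 33.9, 33.4, 24.4, 37.8 and 15.5% in *Tip60* cKO and to 40.0, 47.1, 46.9, 46.1 and 60.6% in control mice. All *Tip60* cKO mice were below all control mice, and the difference of -19.2 ± 4.73 percentage points (SE) had an adjusted p of 0.0605 (range over all alternatives 0.0246 to 0.534). The genotypes overlapped at *Ccnd2* with a window of 1 kb on each side (-6.80 points, adjusted p = 0.534), with all transcripts (-15.5, adjusted p = 0.165) and with equal peak numbers (-21.8, adjusted p = 0.0246). Its peaks lay within chr6:127150183-127152493. *Rbl1* was covered to 23.0, 22.3, 19.4, 21.6 and 21.1% in *Tip60* cKO and to 27.9, 27.8, 26.7, 27.3 and 32% in control mice, again without overlap (difference -6.86 ± 2.03, adjusted p = 0.0905, peaks at chr2:157204014-157205513). At *Plk1* the control mice were covered to 5.28, 9.05, 7.40, 8.43 and 5.95% and *Tip60* cKO mice to 0% (difference -7.22, adjusted p = 0.0699). With equal peak numbers 2 control mice kept a *Plk1* peak, the genotypes overlapped and the difference was -3.165 percentage points. *Mad2l1* was covered to 10.3, 9.13, 11.2, 8.25 and 10.4% in *Tip60* cKO and to 5.75, 5.78, 8.0, 6.08 and 6.30% in control mice (difference 3.46, adjusted p = 0.291). With equal peak numbers 2 control mice kept a *Mad2l1* peak and the difference was 7.365 percentage points.

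The other genes with a lower coverage at an unadjusted p below 0.05 overlapped between genotypes. *Ccnd3* was covered to 24.5, 7.93, 21.2, 0 and 0% in *Tip60* cKO and to 19.5, 31.9, 19.4, 29.6 and 33.6% in control mice (difference -16.1 ± 5.32, adjusted p = 0.116, peaks at chr17:47504532-47505646). For *Wee1* the values were 33.5, 10.2, 9.05, 12.0 and 4.80% in *Tip60* cKO and 27.8, 29.4, 23.1, 32.7 and 28.1% in control mice (-14.3 ± 4.75, adjusted p = 0.117, peaks at chr7:110122192-110123534). *Tip60* cKO mouse 1 was above all control mice at *Wee1*, and without this mouse the difference was -19.2 with an adjusted p of 0.0122. *Rbl2* was covered to 21.6, 21.4, 22.2, 17 and 5.20% in *Tip60* cKO and to 35.2, 29.8, 30.1, 19.3 and 26.7% in control mice (-10.7 ± 3.88, adjusted p = 0.141), and the overlap came from control mouse 4. *Birc5* was covered to 36.7, 26.1, 24.6, 29.7 and 24.6% and to 34.5, 37.8, 38.0, 32.9 and 35.8% (-7.46 ± 2.74, adjusted p = 0.144, peaks at chr11:117847610-117849174), with *Tip60* cKO mouse 1 within the control range. *Cdkn2c* had the higher coverage in *Tip60* cKO, with 6.08, 6.90, 9.5, 8.4 and 15.7% against 9.18, 6.08, 0, 0 and 0% in control mice (6.26 ± 2.80, adjusted p = 0.207). With the windows of all transcripts *Cdkn1a* was covered to 15.1 to 28.2% in *Tip60* cKO and to 33.4 to 57.2% in control mice, a difference of -20.7 ± 4.48 percentage points (adjusted p = 0.0479) where 1.42% of 22522 genes were called lower. It was singled out after its values were seen.

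**Figure D5:**
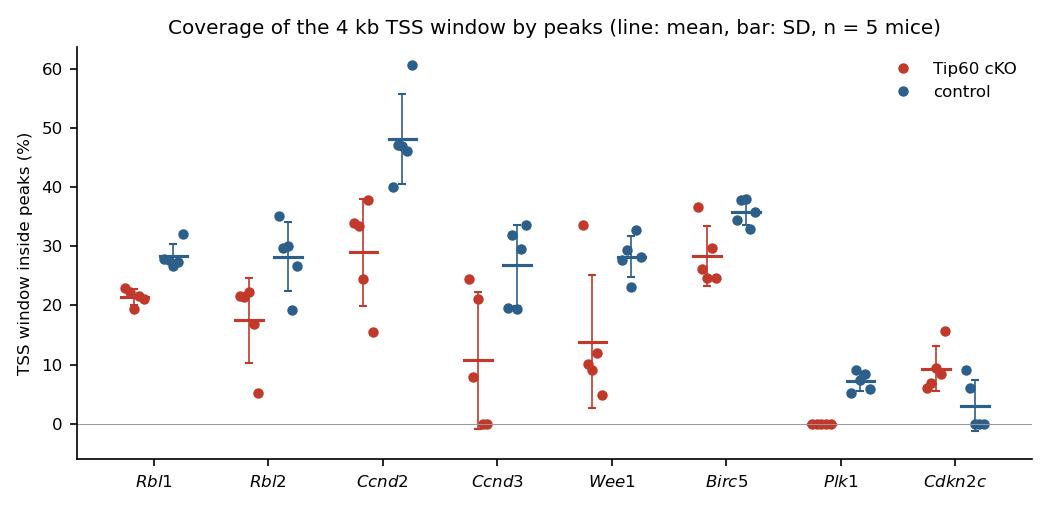
Percent of the 4 kb TSS window that lay inside H4K12ac peaks in each of 5 *Tip60* cKO and 5 control mice, with the mean (line) and SD (bar). *Rbl1*, *Ccnd2* and *Plk1* did not overlap between genotypes, *Wee1* and *Birc5* overlapped through *Tip60* cKO mouse 1, and *Cdkn2c* had the higher coverage in *Tip60* cKO.

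The pathway around the 43 genes was examined in 66 other cell cycle genes, among them subunits of the DREAM and anaphase-promoting complexes, kinetochore genes and further cyclins. 58 of them were tested at the TSS, and 0 passed the limma test in either direction, while 7 were lower and 4 higher at an unadjusted p below 0.05 (12.1% and 6.9%, against 6.68% and 5.1% of all genes). Their median difference of -0.67 points was close to the -0.69 points of all genes. The smallest p-values among those lower in *Tip60* cKO belonged to *Fzr1* (-12.8 ± 3.08 points, adjusted p = 0.116) and *Anapc4* (-10.5 ± 2.81, adjusted p = 0.166), an activator and a subunit of the anaphase-promoting complex, followed by *Spc24* and *Cdc26* with a peak in 2 *Tip60* cKO and 5 control lists each. Among those higher they belonged to *Cdk7*, the CDK-activating kinase (13.3 ± 2.50, adjusted p = 0.0998), *Anapc5*, *Cenpa* and *Foxm1*. In gene bodies 32 were tested and 0 passed, with 4 lower and 0 higher at an unadjusted p below 0.05 (against 6.13% and 4.34% of all genes), of which *Skp2*, which marks p27 for degradation, had the smallest p (-15.5 ± 2.67 points, adjusted p = 0.114). Their median body difference was -10.5 points, compared to -0.59 for all genes, and 27 of 32 (84.4%) had the lower mean in *Tip60* cKO, compared to 54.2% of all genes. Most of these genes lacked a body peak in at least 1 list, where the score is 0. The median therefore mixes missing peaks with differences in peak strength. Among those with a body peak in every list, differences ranged from -15.5 to 9.68 points. In coverage 1 of 58 passed, *Kif11*, a motor of the mitotic spindle, with 7.64 ± 2.57% in *Tip60* cKO and 18 ± 1.96% in control (-10.4 ± 2.17, adjusted p = 0.0412), and 11 were lower and 0 higher at an unadjusted p below 0.05. These shares of 1.72% and 19% lower were near the 1.53% and 22.3% of all genes.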

How the data were processed

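The 43 genes and the other gene lists were chosen with earlier results of these data known. H4K12ac ChIP-Seq libraries of 5 *Tip60* cKO and 5 control mice were assigned to genotypes by their labels. The authors mapped reads to mm10 with STAR, removed duplicates with SAMtools and called peaks (q below 0.1) for each library, against input of the same genotype, using MACS 2.1.0.20140616, and the paper's own comparison of reads was not repeated. The deposited pileup is a coverage signal in fragments at the summit. Fold enrichment, as deposited, gives the ratio of pileup to local background, with 1 added to both, and the authors give p-values and q-values of peaks as −log10. The lists hold no read counts per region, so the precision is the spread between mice, and peaks found depend on the 22864189 to 37923809 tags per library.

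Genes and TSSs were taken from GENCODE M21 (GRCm38, the same build as mm10), and a peak counted in a window when it overlapped by at least 1 base. Rank scores and coverage of the window by peaks were compared with limma 3.58.1 in R 4.3.3 (lmFit and eBayes, two-sided, Benjamini-Hochberg over all genes with a peak in at least 2 lists), and exact permutation tests used all 252 assignments of mice. Scores were computed in Python 3.11.15 with numpy 2.4.6 and pandas 2.3.3. The limma step was tested on simulated scores. Sequencing lanes were read from the names of the deposited lists. Values for each mouse are given for genes with an unadjusted p below 0.05, for genes whose genotypes do not overlap, for *E2f1* and for the highest and lowest control mean. Of the other cell cycle genes up to 4 with the smallest p in each direction are named. Alternatives were stricter peaks (q below 0.01), equal peak numbers, ranks by pileup, log2 fold enrichment relative to the median, other windows and filters, another prior, lanes, a replicate block, and each mouse left out. Genes with a peak in all 10 lists were added as an alternative after seeing the data.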

Additional observations from a re-analysis of the deposited data

Results flagged for a closer look

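Of 50 groups of 5 values that were checked, 8 held a value whose gap to the nearest other mouse was more than 0.71 of the range of the group. Chance gives about 1 in 20 for normally distributed values. TSS scores are 0 without a peak and far from 0 with one. A mouse alone with or without a peak is thus flagged by construction, and the 8 cannot be set against that rate. At *Rbl2* control mouse 3 had the low TSS score of 81.1. At *Ccna2* *Tip60* cKO mouse 1 was alone with a peak (67.3), and control mouse 4 was alone without (0). At *E2f1* *Tip60* cKO mouse 4 was the mouse without a peak (0). In the body of *E2f4* control mouse 5 had the high score of 76.5. For coverage, control mouse 5 was high at *Rbl1* (32%), control mouse 3 was high at *Mad2l1* (8.0%) and *Tip60* cKO mouse 1 was high at *Wee1* (33.5%).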

How the results depend on the processing

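For the 22 gene values with an unadjusted p below 0.05, without overlap or of *E2f1*, 491 of 510 alternative values kept their direction and their side of the threshold. Among the 22 only the *Plk1* TSS score passed in the reported comparison. For the others, keeping their side meant staying above the threshold, so this tally says little about stability. At the TSS the number of cell cycle genes that passed was 1 in the reported comparison, 0 with equal peak numbers, 0 with the trend and robust prior, 0 under the exact test, 2 with log2 fold enrichment (*Cdkn1b* and *Rbl2*) and 4 in lane 8 alone (*Cdkn2c*, *Plk1*, *Cdc25a* and *Ccnd3*, each without a peak in both lane 8 mice of one genotype). It was 1 for genes with a peak in all lists, where *Mad2l1* passed (adjusted p = 0.0198) and *Plk1* was not tested, and 1 (*Plk1*) each time a mouse was left out. The cause was not tested. Under the exact test no gene could pass at the TSS. The smallest p that 5 against 5 mice allow (0.00794) stayed above 0.05 after adjustment over all genes. Genes passing over the genome numbered 490 with log2 fold enrichment, 232 and 930 in lanes 7 and 8, 230 for genes with a peak in all lists, 77 with the trend and robust prior and 0 under the exact test, compared to 51. For bodies they numbered 168 and 690 in lanes 7 and 8 and 8 with the trend and robust prior, compared to 24, and for coverage 3 and 0 in lanes 7 and 8, 32 with no filter, 734 with equal peak numbers, 653 with lane as a covariate and 1416 without *Tip60* cKO mouse 1, compared to 339. When mice were left out these numbers ranged from 57 to 101, from 31 to 54 and from 40 to 1416. The median TSS difference of -2.87 became -4.01 with q below 0.01, -1.31 by pileup, 0 with no filter, -1.76 for genes with a peak in all lists, and -1.18 and -1.88 in lanes 7 and 8. It ranged from -3.86 to -1.44 when mice were left out, with the latter value without *Tip60* cKO mouse 3. In bodies the count of 0 became 1 in each lane alone (*E2f4* in lane 7 and, without a peak in control, *Cdk2* in lane 8) and was 0 whichever mouse was left out, and the exact test gave 1 lower and 1 higher gene at an unadjusted p below 0.05. The median body difference of -2.16 became -5.38 with q below 0.01, -5.52 with equal peak numbers and 0 with no filter, and ranged from -6.19 to -2.50 when mice were left out, with -2.50 without control mouse 2, -2.89 without *Tip60* cKO mouse 5 and values of -3.53 or lower without any other mouse. For coverage the count of 0 became 2 with equal peak numbers (*Ccnd2* and *Rbl2*), 1 with all transcripts (*Cdkn1a*), 1 with no filter and 1 with the trend and robust prior (*Plk1* in both). It ranged from 0 to 4 when mice were left out, with 4 (*Ccnd2*, *Wee1*, *Birc5* and *Ccnd3*) without *Tip60* cKO mouse 1. The exact test gave 8 lower genes and 1 higher at an unadjusted p below 0.05. The median coverage difference of -5.10 became 0 with no filter and ranged from -6.24 to -4.0 when mice were left out. Among the 22 values the direction turned at *E2f1* with log2 fold enrichment (-0.0156) and in the body of *E2f2* by pileup (2.62). Over all tested cell cycle genes it turned under at least 1 alternative at 11 of 28 genes for TSS scores, 8 of 19 for bodies and 9 of 28 for coverage.

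With the replicate number as a block, 1, 0 and 0 cell cycle genes passed for TSS scores, bodies and coverage, and 35, 22 and 0 genes of the genome, with medians of -2.87, -2.16 and -5.10. Same-numbered mice share a number and a sequencing lane, and their deviations correlated between -0.04 and 0.06. The library with the fewest tags (22864189, *Tip60* cKO mouse 5) also had the fewest peaks (64245), and beyond the comparison with equal peak numbers the part of depth in single values was not tested.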
